A study of Mus musculus with 6 samples.

Results

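Chromosome 5 of the mouse was examined for peaks of H3K9me3, histone H3 trimethylated at lysine 9, outside 3 to 8 Mb and the last 5 Mb of the chromosome. It was chosen by its density of peaks, so its level of coverage is described here without a test. The kept part ran from 8000001 to 146834600 on mm10 (GRCm38), 139 windows of 1 Mb with the last cut short. A peak was a member when its midpoint lay in this part, which gave 3905 and 3902 peaks in shCTR replicates 1 and 2 out of 53309 and 54110 in their whole lists. In shPHF8 replicates 1 and 2 there were 3054 and 3894 members out of 44318 and 55557.

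ChIP-seq, the sequencing of chromatin pulled down with an antibody, mapped the mark in neural stem cells (NSCs) cultured from the cerebral cortex of C57BL/6J mouse embryos. All NSCs were infected with lentivirus, carrying either a scrambled shRNA (shCTR, 2 ChIP libraries) or an shRNA against PHF8 (shPHF8, 2 ChIP libraries), and per the study's methods infected cells were selected with puromycin. PHF8 is a demethylase of histone tails known for removing dimethyl and monomethyl groups from H3K9 and the monomethyl group from H4K20. The comparison asks how the heterochromatin mark lay in NSCs depleted of PHF8. Nothing in the labels says whether the libraries of a condition came from separate cultures, so the spread between them may be technical. Each list gives broad peaks as positions only, with no height or score, so the lists do not give the number of reads behind a peak and a change in height within a peak is not seen. The number of libraries therefore limits the precision, and with 2 libraries against 2 the smallest exact two-sided permutation p is 0.333. Peak positions measure no transcript, so neither the level of Phf8 nor the markers of NSCs could be checked from them. In bulk chromatin, a region marked in more of the cells and a region marked more strongly in each cell cannot be told apart.

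H3K9me3 is the mark of constitutive heterochromatin. It is written by the SUV39H and SETDB1 methyltransferases, bound by HP1 proteins, and spreads into broad domains that differ between cell lineages. In mouse cells it is known from pericentromeric repeats, from retroviral elements silenced through zinc finger repressors with TRIM28 and SETDB1, and from the zinc finger gene clusters themselves. It can also lie over genes of other lineages that a cell type does not use.

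Short stretches of the marked DNA are given to show what kind of sequence the peaks held. For each of the 3 densest windows, the 200 bases lie at the centre of the widest run in which all 4 libraries had a peak, moved where needed to leave out exons. The other lines come from the widest region with peaks in both shPHF8 libraries alone and the widest with peaks in both shCTR libraries alone. Each shows the centre of the widest run in that region covered by both libraries of the condition, moved in the same way. All are on the plus strand of GRCm38, with each CG dinucleotide in capitals.
Window at 119 Mb, chr5:119074001-119074200: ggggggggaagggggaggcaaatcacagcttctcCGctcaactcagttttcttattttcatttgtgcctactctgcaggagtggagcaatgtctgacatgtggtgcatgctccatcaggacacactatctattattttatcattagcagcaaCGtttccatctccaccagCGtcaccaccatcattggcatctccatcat
Window at 127 Mb, chr5:127437401-127437600: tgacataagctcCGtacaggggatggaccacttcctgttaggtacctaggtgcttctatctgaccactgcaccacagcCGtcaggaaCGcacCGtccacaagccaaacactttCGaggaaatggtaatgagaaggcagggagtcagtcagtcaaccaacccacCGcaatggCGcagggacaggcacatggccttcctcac
Window at 126 Mb, chr5:126761601-126761800: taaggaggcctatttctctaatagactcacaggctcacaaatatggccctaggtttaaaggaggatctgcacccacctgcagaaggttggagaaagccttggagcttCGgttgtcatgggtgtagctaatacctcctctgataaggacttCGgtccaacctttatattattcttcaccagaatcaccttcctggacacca
Widest shPHF8 region, chr5:130646001-130646200: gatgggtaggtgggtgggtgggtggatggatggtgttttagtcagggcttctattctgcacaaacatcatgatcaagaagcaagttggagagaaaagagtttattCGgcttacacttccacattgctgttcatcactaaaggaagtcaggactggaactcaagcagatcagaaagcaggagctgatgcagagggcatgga
Widest shCTR region, chr5:36074401-36074600: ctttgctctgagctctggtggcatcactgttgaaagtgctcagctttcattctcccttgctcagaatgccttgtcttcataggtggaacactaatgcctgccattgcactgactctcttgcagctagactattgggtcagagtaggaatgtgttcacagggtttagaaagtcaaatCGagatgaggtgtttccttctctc

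The stretch at 119 Mb was intergenic, 34033 bp from the lincRNA 1700081H04Rik, and lay in a run of 15800 bp covered in all 4 libraries. It held 3 CG dinucleotides, and soft-masked repeats made up 22.5% of its bases. The stretch at 127 Mb lay in an intron of Tmem132c, in a run of 9200 bp, and held 7 CG and no soft-masked base (0%). The stretch at 126 Mb, in a run of 7600 bp, was intergenic and 480007 bp from the nearest protein-coding gene, also Tmem132c. Both stretches from the regions of a single condition were intronic and held 1 CG each. The sequence from the widest shPHF8 region, in Caln1, was soft-masked over 100% of its bases. That from the widest shCTR region, in Sorcs2, was soft-masked over 0%.

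Peaks covered 9.40% and 9.29% of the kept part in shCTR replicates 1 and 2. In shPHF8 they covered 12.8% and 11.8%. The mean over the 4 libraries was 10.8%, the highest of the 19 autosomes cut in the same way. Chromosome 17 followed with 10.0%, chromosome 13 with 9.08% and chromosome 9 with 8.78%, and chromosome 16 was lowest with 5.18%. Over the other 18 autosomes together, coverage was 6.25% and 6.37% in shCTR and 8.81% and 7.88% in shPHF8. Chromosome 5 made up 6.27% of the kept length of all autosomes and held 8.85 to 9.13% of the covered bases in each library. Of its merged regions, 125 of 4401 were at least 20 kb wide (2.84%), against 503 of 60969 on the other autosomes (0.825%).

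**Figure D1:**
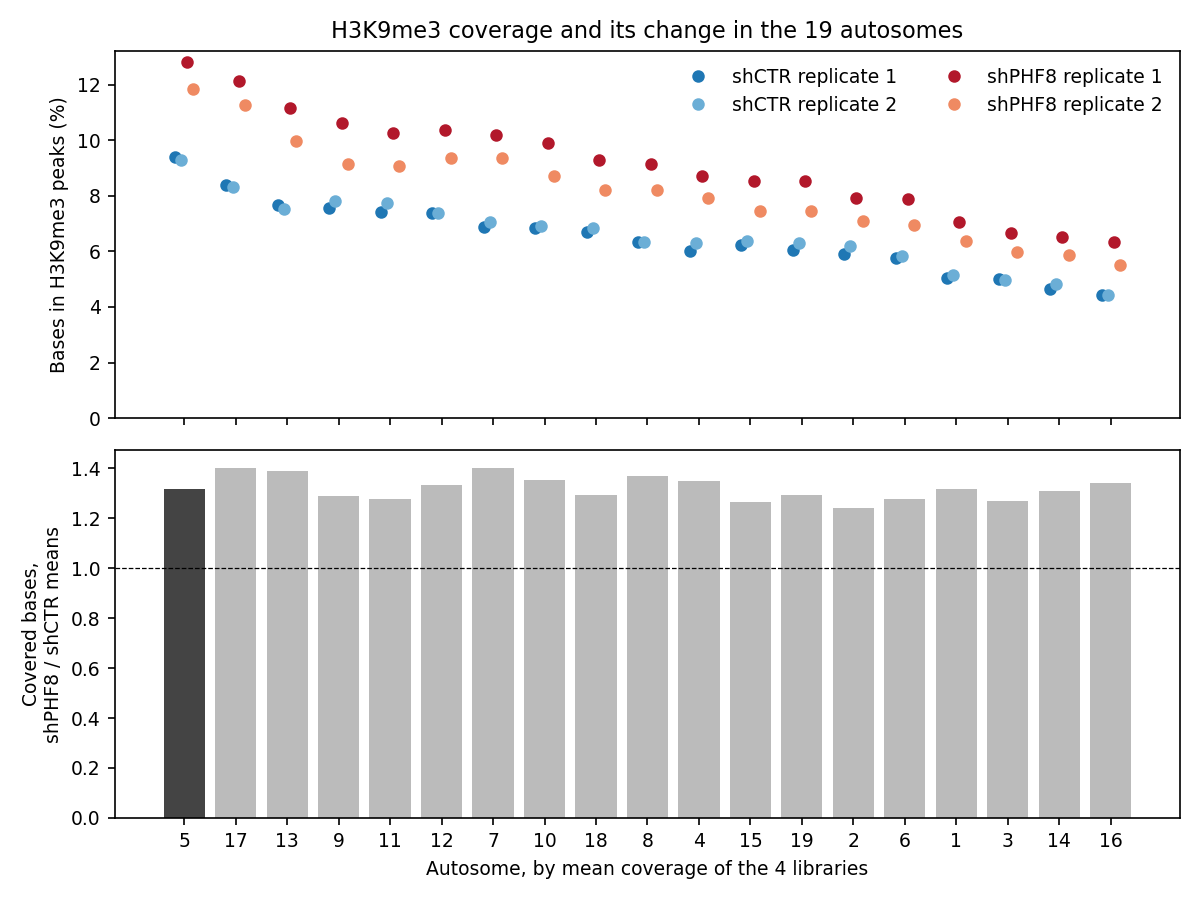
Each dot is the share of bases in H3K9me3 peaks (%) in 1 library, for the 19 autosomes ordered by their mean, and the bars below give covered bases in shPHF8 over shCTR (ratio of means of 2 libraries each). Chromosome 5 has the highest coverage, and its ratio of 1.32 lies within the range of the other autosomes, 1.24 to 1.40.

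The density was not spread evenly. In windows of 1 Mb, the mean coverage of the 4 libraries had a median of 7.81% on chromosome 5 and 5.68% on the other autosomes. Chromosome 5 had more windows at both extremes: 24 of 139 were over 20% (17.3%), against 113 of 2087 elsewhere (5.41%), and 27 were under 1% (19.4%), against 277 elsewhere (13.3%). The stretch from 111 to 141 Mb made up 21.6% of the kept length and held 54.8% and 54.8% of the covered bases in the shCTR libraries and 53.8% and 53.9% in the shPHF8 libraries. All windows of this stretch except that at 121 Mb were above the chromosome's mean. Coverage there was 23.8% and 23.5% in shCTR and 31.9% and 29.5% in shPHF8. From 8 to 111 Mb it was 4.96% and 4.90% in shCTR and 6.84% and 6.29% in shPHF8. Of the regions at least 20 kb wide, 96 lay between 111 and 141 Mb and 29 outside. Without this stretch, which was picked after its values were seen, coverage of the rest was 6.32% and chromosome 5 ranked 15 among the autosomes, none of which had a stretch taken out.

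**Figure D2:**
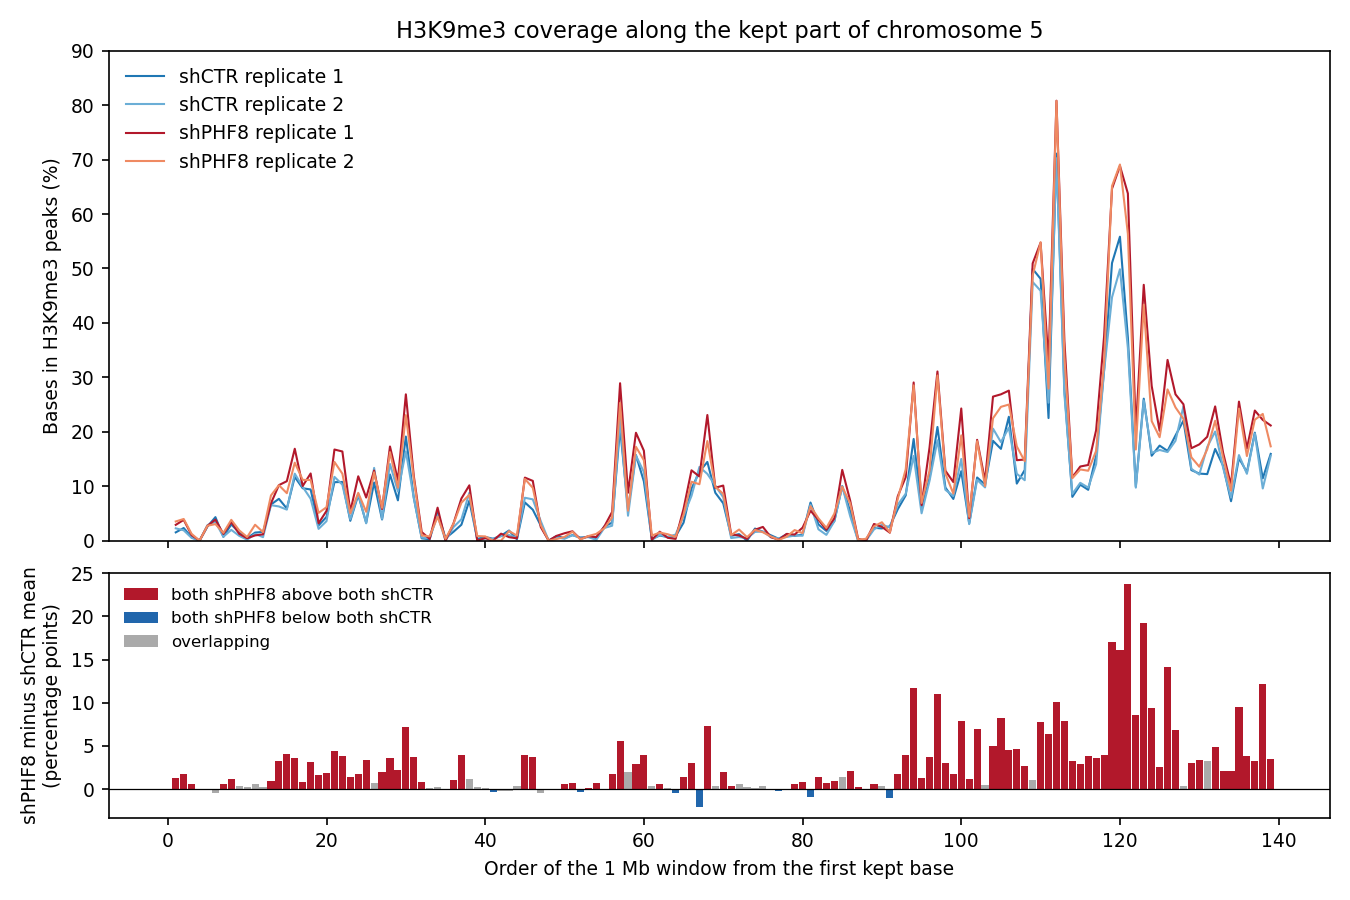
The upper panel plots the share of each 1 Mb window in H3K9me3 peaks (%) for the 4 libraries, in order from the window at 8 Mb, and the lower panel the difference of the shPHF8 and shCTR means in percentage points, coloured by whether the libraries of the conditions overlap. The highest windows, up to 80.8% in shPHF8, and the largest differences, up to 23.8 points, lie in the last part of the chromosome.

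Coverage differed between the ends of the chromosome on either side of the cuts. The first kept window was covered by 1.52, 2.26, 2.90 and 3.52% in shCTR replicates 1 and 2 and shPHF8 replicates 1 and 2, and the left-out 3 to 8 Mb by 3.25, 2.92, 5.05 and 4.25%. The last kept window was covered by 15.9, 15.6, 21.2 and 17.3%, and the left-out last 5 Mb by 24.1, 24.5, 32.7 and 28.7%. The distal end left out was thus denser than the kept part next to it in every library.

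The densest window of all autosomes lay at 119 to 120 Mb. Peaks covered 71.1% and 70.3% of it in shCTR and 80.8% and 80.8% in shPHF8. After scaling each library to an equal covered length over the autosomes, the order turned, with 83.2% and 80.9% in shCTR and 67.3% and 75.0% in shPHF8. The scaled order is limited here, because peaks cannot cover more than the whole of a window. This window, dense in shCTR, had little room to rise in step with the total. Its 2 protein-coding genes are Tbx3 and Tbx5, neighbouring T-box transcription factors of heart and limb development, beside 10 lincRNAs. Tbx5 was covered over 90.1% and 82.5% of its length in shCTR and 98.5% and 92.8% in shPHF8. Tbx3 was covered over 88.6% and 94.3% in shCTR and 88.6% and 77.2% in shPHF8, so the conditions overlapped there. The widest region of the chromosome, chr5:119738401-119898600, spanned Tbx5 with its promoter, exons and untranslated parts. Of its 160200 bp, 133600 and 132600 were in shCTR peaks and 152200 and 145200 in shPHF8 peaks. Between Med13l and Tbx3, where no protein-coding gene lies, further regions of 70200 and 68800 bp lay over Gm43784 and the lincRNA Gm7538. Med13l itself, a subunit of the Mediator kinase module named after its values were seen, was covered over 3.71 to 6.06%.

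Runs of windows over 25% formed blocks from 116 to 121 Mb, which holds the window of Tbx5, and from 125 to 129 Mb. The latter was covered over 43.9% and 40.3% in shCTR and 58.7% and 55.9% in shPHF8. It held 17 protein-coding genes, or 4.25 per Mb, against 14.0 per Mb over the whole stretch from 111 to 141 Mb. The window at 126 Mb had 0 protein-coding genes and 5 lincRNAs, and was covered over 51.0% and 44.7% in shCTR and 64.7% and 65.1% in shPHF8. The window at 127 Mb was covered over 55.8% and 49.9% in shCTR and 68.8% and 69.1% in shPHF8. There, Glt1d1, which has a glycosyltransferase domain, was covered over 61.6, 67.8, 67.3 and 79.3% in shCTR replicates 1 and 2 and shPHF8 replicates 1 and 2. Tmem132c, a single-pass membrane protein, was covered over 59.4, 59.1, 69.3 and 64.4%. Slc15a4, an endolysosomal transporter between these genes, was covered over only 15.8, 9.93, 18.5 and 19.1%.

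The block from 116 to 121 Mb held long genes. Ksr2, a scaffold of the Raf and ERK kinase cascade, was covered over 73.8% and 70.3% of its 361004 bp in shCTR and 75.7% and 77.5% in shPHF8. Nos1, the neuronal nitric oxide synthase, was covered over 57.8% and 53.3% in shCTR and 66.5% and 67.7% in shPHF8. A region of 131200 bp lay within Ksr2, and the next, of 131800 bp, ran from the end part of Ksr2 into Nos1. Ccdc60 was covered over 71.5% and 66.2% in shCTR and 53.1% and 58.5% in shPHF8, lower in both shPHF8 libraries. The marked genes stood beside bare ones. Pebp1, Rfc5 and Hspb8, of the windows at 116 and 117 Mb, had no peak within the gene in any of the 4 libraries. They were named after their values were seen.

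**Figure D3:**
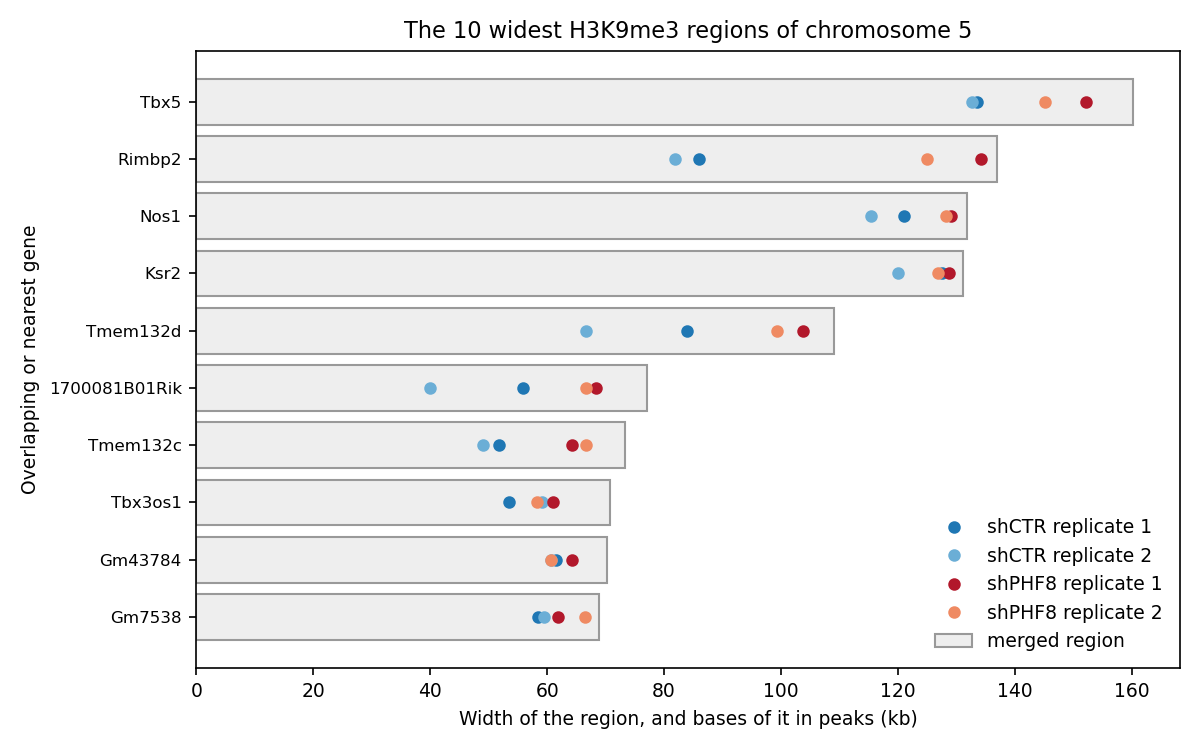
Grey bars give the width (kb) of the 10 widest merged H3K9me3 regions of chromosome 5, labelled by overlapping or nearest gene, and dots the bases (kb) of each in peaks of each library. At Rimbp2 the shPHF8 libraries cover 134200 and 125000 bp and the shCTR libraries 86000 and 81800 bp, while at Ksr2 the libraries of both conditions overlap.

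Over the whole kept part, 37 of 1194 protein-coding genes (3.10%) were covered over 50% of their length or more in all 4 libraries, where 2.57% of the genes of all autosomes did. Of these genes, 16 lay between 111 and 141 Mb. Among the other autosomes the share ran from 0.862 to 5.79%. For 39 of the 1194 genes (3.27%), the start site lay in a peak of all 4 libraries, against 3.83% on the other autosomes. A further 541 of the 1194 genes had no peak in any library.

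Developmental regulators had the highest coverage of the listed groups, which were chosen with earlier results of these data known. Of 11 on the list, 8 were covered over at least 50% in all 4 libraries, beside 37 of all 1194 genes (3.10%). The 11 genes ran in length from 2293 bp (Gsx2) to 52552 bp (Tbx5). Peaks held 87.8% and 86.3% of the bases of these genes in shCTR and 90.7% and 83.5% in shPHF8, so the conditions overlapped. Mnx1, a homeobox factor of motor neurons, and Msx1, a homeobox factor of facial and limb development, were covered over 100% in every library. The run covered in all 4 libraries at Mnx1, 29000 bp at chr5:29465601-29494600, was the longest of the kept part. Gsx2, a homeobox factor of the ventral forebrain, was covered over 87.2% in shCTR replicate 1 and 100% in each of the other libraries. En2, a factor of the midbrain and hindbrain boundary, was covered over 79.8% in both shCTR libraries and 100% and 92.2% in shPHF8. Shh, the secreted morphogen, had lower coverage of 59.4, 59.4, 61.3 and 42.1%.

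Start sites of these factors are known to lie in CG-rich sequence, and the 250 bases before the start of Mnx1 and Msx1 are shown beside those of Rimbp2, a long neural gene in the window with the largest difference between conditions. The sequences are from RefSeq on GRCm38.p6, on the minus strand, which all of them are transcribed from, and CG dinucleotides are in capitals.
Mnx1, chr5:29478471-29478720: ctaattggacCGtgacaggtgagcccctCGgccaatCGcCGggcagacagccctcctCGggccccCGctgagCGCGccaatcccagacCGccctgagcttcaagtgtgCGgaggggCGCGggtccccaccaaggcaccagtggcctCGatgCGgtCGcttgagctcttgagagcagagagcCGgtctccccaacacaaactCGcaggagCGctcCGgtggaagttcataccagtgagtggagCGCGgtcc
Msx1, chr5:37824586-37824835: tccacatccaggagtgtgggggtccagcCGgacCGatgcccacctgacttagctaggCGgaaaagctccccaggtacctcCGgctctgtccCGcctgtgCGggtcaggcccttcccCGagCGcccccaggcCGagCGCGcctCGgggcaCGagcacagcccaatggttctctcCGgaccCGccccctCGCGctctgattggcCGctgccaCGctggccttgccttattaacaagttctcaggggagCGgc
Rimbp2, chr5:128953487-128953736: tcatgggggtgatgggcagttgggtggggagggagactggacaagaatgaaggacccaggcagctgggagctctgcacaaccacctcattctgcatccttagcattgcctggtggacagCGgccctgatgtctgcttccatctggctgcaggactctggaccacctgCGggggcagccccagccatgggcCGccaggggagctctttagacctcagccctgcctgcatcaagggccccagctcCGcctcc

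The Mnx1 sequence held 21 CG, a number reached by 20.9% of the 1906 start sites of chromosome 5 in the RefSeq table. Msx1 held 20, and Rimbp2 held 4. Peaks of all 4 libraries covered the whole 250 bases at Mnx1 and Msx1, and no library did so at Rimbp2. Of the developmental regulators, 5 were matched in the table, all 5 of them covered whole in all 4 libraries, with 16 to 29 CG. Most covered starts were not rich in CG. The 99 start sites covered in all 4 libraries had a median of 6 CG in 250 bases, and the 1585 covered whole in no library a median of 8. At least 1 CG was held by 92.8% of the 1906.

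Zinc finger genes, many of which encode repressors of retroviral elements, were the other group known for this mark. Of 22 in the kept part, 14 had a peak in all 4 libraries, 2 were covered over at least 50% in all 4, and 5 had no peak. Beside them, 435 of all 1194 genes of the kept part had a peak in all 4 libraries, 37 were covered over at least 50% in all 4, and 541 had no peak. Zfp68 was covered over 95.3% and 92.8% in shCTR and 92.8% and 92.8% in shPHF8. Zfp951 was covered over 87.9% and 88.3% in shCTR and 93.0% and 88.8% in shPHF8. In Zfp68 the mark lay over the gene and not over its start, where 240 of 2001 bases around the start site were covered in shCTR replicate 1 and 0 in each of the other libraries. Zfp11, Zfp512, Zfp655, Zkscan14 and Zscan21 had no peak, and they are named after their values were seen. Both shPHF8 libraries were above both shCTR libraries in 10 of the 17 zinc finger genes with a peak and below in 1. On this scale 27.8% of the autosomal genes with a peak were up and 12.9% down, and on chromosome 5 204 of 653 were up (31.2%) and 85 down (13.0%).

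In most of the listed tandem clusters of tissue-restricted genes, most genes had no peak. None of 9 Speer genes, 3 Prame-like genes, 4 genes of the albumin family and 10 CXC chemokines had a peak in any of the 4 libraries. Alb and Afp, which encode the main serum proteins of adult and fetal liver, are among them. Nor did 9 of 10 Ugt2 glucuronosyltransferases, 6 of 7 Tmprss11 proteases, 10 of 11 genes of caseins and enamel or saliva proteins, 7 of 10 Vmn2r vomeronasal receptors and 6 of 9 Cyp3a enzymes. Beside these counts, 541 of all 1194 genes of the kept part had no peak. Speer, Prame-like, Vmn2r, Ugt2 and Cyp3a genes are families of near-identical copies. How reads that map to several copies entered the peak calls is not given in the sources used here, so a gene of these families without a peak is uncertain. The GABA-A receptor subunits, a cluster of 4 genes for the inhibitory receptor of the brain, were nearly bare over their length as well. Gabrb1 was covered over 1.28% and 1.89% in shCTR and 0.652% and 0.937% in shPHF8, and Gabra2 and Gabrg1 had no peak. Gabra4 was covered over 2.15% and 2.38% in shCTR and listed at 0 in both shPHF8 libraries. The starts of Gabrb1 and Gabra4, which adjoin, were marked in shCTR alone. Of the 2001 bases around the start, shCTR peaks held 1688 and 2001 at Gabrb1 and 1493 and 1893 at Gabra4, and shPHF8 peaks 0.

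The Oas genes, some of which make the oligoadenylates that activate RNase L in the interferon response, had more coverage than those clusters. All but Oasl1 and Oasl2 lie in the window at 120 Mb, which was itself dense. That window was covered over 27.8% and 26.9% in shCTR and 36.7% and 33.8% in shPHF8. Of the 11 Oas genes, 10 had a peak in at least 1 library and 5 in all 4, beside 653 and 435 of the 1194 genes of the kept part. Peaks held 19.7% and 22.0% of their bases in shCTR and 32.5% and 33.4% in shPHF8. Oas1d was covered over 28.1% and 42.2% in shCTR and 84.3% and 75.9% in shPHF8. Oas1f was covered over 43.2% and 49.0% in shCTR and 62.1% and 75.3% in shPHF8. Of the 10 Oas genes with a peak, both shPHF8 libraries were above both shCTR libraries in 6 and below in 0. Over the genes of the chromosome with a peak, 31.2% were up and 13.0% down. The Oas1 genes are close copies, so reads may be shared among them. Of 5 Gbp genes, interferon-induced GTPases, Gbp8 was covered over 2.07% and 1.91% in shCTR and 14.4% and 13.9% in shPHF8. Gbp9, whose annotation overlaps that of Gbp8, was covered over 0.276% in both shCTR libraries and 15.8% and 13.2% in shPHF8. Gbp4, Gbp6 and Gbp10 had no peak in any library.

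Of 16 listed long genes of neural adhesion, guidance and the synapse, 10 had a peak in all 4 libraries, and Nos1 was covered over at least 50% in all 4. Beside them, 435 of all 1194 genes of the kept part had a peak in all 4. These counts are not matched for length. The listed genes ran from 155988 bp (Sema3c) to 1477757 bp (Magi2), and a longer gene has more room for a peak. The list leaves out Rimbp2 and Caln1, long neural genes whose higher coverage is given below. The median coverage of the 16 listed genes over the 4 libraries was 1.41%, beside 1.16% over all 1194 genes. Auts2, linked to neurodevelopment, was covered over 14.8% and 16.4% of its 1106012 bp in shCTR and 13.3% and 13.7% in shPHF8. Sema3c and Sema3e, secreted guidance cues, had no peak. In this group 4 genes were up and 3 down, of 14 with a peak, beside 31.2% up and 13.0% down over the genes of the chromosome with a peak.

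**Figure D4:**
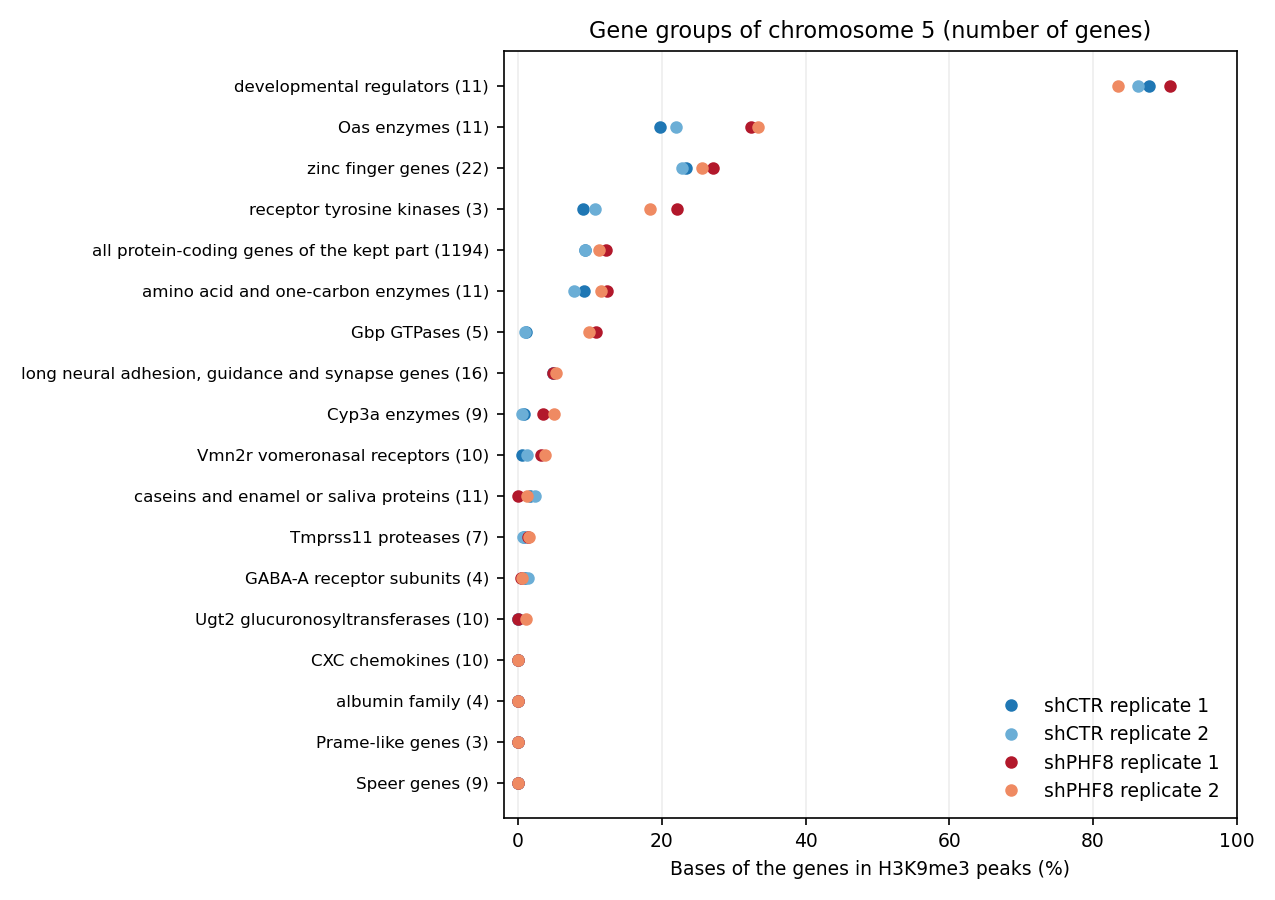
Each dot is the share (%) of the bases of all genes of a group that lay in H3K9me3 peaks of 1 library, with the number of genes in brackets. Developmental regulators lie at 83.5 to 90.7%, the Oas enzymes and zinc finger genes at 19.7 to 33.4%, and the CXC chemokines, albumin family, Prame-like and Speer genes at 0%.

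The covered length of the kept part was 13.0 and 12.9 Mb in shCTR replicates 1 and 2 and 17.8 and 16.4 Mb in shPHF8 replicates 1 and 2. The ratio of the shPHF8 to the shCTR mean was 1.32 (p = 0.333 by exact permutation, two-sided, which no split of 4 libraries can go below). Over the other autosomes the ratio ran from 1.24 on chromosome 2 to 1.40 on chromosome 7, and it was 1.32 for all of them pooled. As a share of the covered bases of all autosomes, chromosome 5 held 9.13% and 8.88% in shCTR and 8.85% and 9.13% in shPHF8. The ratio of the mean shares was 0.998 (p = 0.667 by exact permutation, two-sided), so the conditions overlapped on this scale. Leaving out shCTR replicate 1 gave 1.01, shCTR replicate 2 0.984, shPHF8 replicate 1 1.01 and shPHF8 replicate 2 0.983. The number of peaks did not follow the length, and peaks differed in width. The median peak of each shCTR library was 2600 bp wide, and that of shPHF8 replicates 1 and 2 was 4400 and 3200 bp. Peaks at least 20 kb wide numbered 19 and 17 in shCTR and 70 and 44 in shPHF8.

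A window of 1 Mb was called up where each shPHF8 library covered more of it than every shCTR library, and down in the opposite case, which is an order of 4 values and not a test. On chromosome 5, 94 of 137 windows with a peak were up (68.6%) and 7 down (5.11%), where 66.2% of the windows of all autosomes were up and 5.74% down. In bins of 30 kb, 893 of 2603 were up (34.3%) and 226 down (8.68%), where 30.0% of all bins were up and 8.79% down. Between 111 and 141 Mb 383 of 887 bins were up (43.2%), and outside it 510 of 1716 (29.7%). The share of bins up was the second highest of the 19 autosomes, with a range of 25.0 to 35.8% over the others. These counts carry the longer covered length of the shPHF8 libraries. With the covered bases of each library scaled to the same total over the autosomes, 31 windows of chromosome 5 were up (22.6%) and 34 down (24.8%), where 29.6% of all windows were up and 27.4% down. Scaled bins numbered 485 up (18.6%) and 595 down (22.9%), where 18.1% of all bins were up and 19.8% down. Between 111 and 141 Mb 167 of 887 scaled bins were up and 253 down, and outside it 318 of 1716 were up and 342 down, so the higher share of bins up in the stretch was not seen on this scale. Of the 94 windows up, 31 stayed up after scaling and 13 turned down. A window or bin already mostly covered in shCTR has little room to rise in step with the total, which limits scaled calls in dense parts. Without 1 library the call rests on 3 values and is easier to meet. Bins down were then 484 and 459 with shCTR replicate 1 or 2 left out and 463 and 412 with shPHF8 replicate 1 or 2 left out, and windows down were 11, 14, 14 and 11 in the same order. Bins up were 1389 with shPHF8 replicate 2 left out.

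The change was uneven along the chromosome. Between 99 and 111 Mb the ratio of covered bases was 1.44 and from 141 Mb to the kept end 1.43, against 1.20 between 78 and 99 Mb. Within the dense stretch it was 1.36 from 125 to 129 Mb and 1.15 from 116 to 121 Mb. The share of the chromosome's covered bases in the block from 116 to 121 Mb was 16.8% and 16.7% in shCTR and 14.4% and 15.0% in shPHF8. These stretches were set after the window values were seen.

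The window at 128 Mb had the largest difference. It was covered over 37.3% and 35.4% in shCTR and 63.8% and 56.4% in shPHF8. Tmem132d, a membrane protein of the same family as Tmem132c, was covered over 37.4% and 34.5% of its 651448 bp in shCTR and 66.8% and 61.2% in shPHF8. Rimbp2, a protein of the presynaptic active zone, was covered over 56.8% and 54.8% in shCTR and 89.2% and 82.3% in shPHF8. Piwil1, which binds small RNAs in the male germ line, was covered over 34.7% and 29.1% in shCTR and 73.2% and 69.4% in shPHF8. Fzd10, a Wnt receptor in the same window, was covered over 52.1% and 82.9% in shCTR and was listed at 0 in both shPHF8 libraries. Piwil1 and Fzd10 are named after their values were seen.

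The window at 130 Mb followed, with 26.1% and 25.8% in shCTR and 47.0% and 43.3% in shPHF8. Caln1, a calcium-binding protein of neurons, was covered over 36.2% and 32.8% of its 477958 bp in shCTR and 66.1% and 61.2% in shPHF8. Its neighbour Galnt17, of the enzymes that start O-linked glycosylation, was covered over 20.6% and 16.3% in shCTR and 51.9% and 41.0% in shPHF8, and is named after its values were seen. The window without protein-coding genes at 126 Mb came next, with a difference of 17.1 points. With scaled covered bases the windows at 128 and 130 Mb were still up, and at 126 Mb the conditions overlapped. All of these windows were already dense in shCTR. Across the 139 windows, the difference in points was larger where shCTR coverage was higher (Pearson's r = 0.69, Spearman's rho = 0.79, a description over windows of 1 chromosome in which shCTR enters both measures).

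Without scaling, differences in the opposite direction were small. The window at 74 Mb was covered over 12.7% and 13.5% in shCTR and 11.8% and 10.4% in shPHF8. Usp46, a deubiquitinase, was covered there over 20.9% and 18.6% in shCTR and 13.7% and 14.0% in shPHF8. In the window at 98 Mb, with 2.64% and 2.40% in shCTR and 1.46% and 1.52% in shPHF8, the gene with the most covered bases was Prdm8, a transcriptional regulator with a PR domain. It was covered over 37.6% and 48.6% in shCTR and 32.1% and 38.5% in shPHF8, with overlapping conditions. In the window at 88 Mb, Slc4a4, a sodium bicarbonate cotransporter, was covered over 16.9% and 14.7% in shCTR and 14.0% and 13.4% in shPHF8. With scaled covered bases, larger differences in this direction appeared. The window at 116 Mb, where the conditions overlapped before scaling, then had 58.4% and 54.7% in shCTR and 42.4% and 45.3% in shPHF8. On that scale 31 windows of the chromosome were up and 34 down.

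Overlapping or adjoining peaks of any library were joined into 4401 regions on chromosome 5. All 4 libraries had a peak in 1915 of them (43.5%), the highest share of the autosomes. A region was gained when both shPHF8 libraries and neither shCTR library had a peak in it, and lost in the opposite case. There were 171 gained regions (3.89%) and 191 lost regions (4.34%), where 4.31% of all autosomal regions were gained and 5.02% lost. Without shCTR replicate 1, shCTR replicate 2, shPHF8 replicate 1 and shPHF8 replicate 2 in turn, 347, 331, 646 and 334 were gained and 513, 479, 304 and 438 lost. The order turned when a peak had to cover 50% or more of a region, with 448 gained and 195 lost, and with peaks of at least 2000 bp only, with 298 gained and 85 lost. Gained regions had a median width of 4200 bp and lost regions 2400 bp. Of the lost regions, 50 of 191 were within 1 kb of a start site (26.2%), and of the gained regions 21 of 171 (12.3%). On the other autosomes these shares were 17.6% and 15.7%. Gained regions were intergenic in 44.4% and lost regions in 28.3%, and on the other autosomes in 47.6% and 32.2%.

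The widest gained region, chr5:130642601-130655400, lay in an intron of Caln1. It held 0 bases of shCTR peaks, and 9400 and 11800 of its 12800 bp were in shPHF8 peaks. The next was intergenic, 26478 bp from Kit, the receptor of stem cell factor, and 9200 and 6400 of its 9200 bp were in shPHF8 peaks. Kit itself was covered over 11.5% and 15.6% in shCTR and 43.2% and 35.2% in shPHF8. The third, chr5:120475601-120484400, covered the promoter, exons and an untranslated part of Sds, serine dehydratase, which turns serine into pyruvate. Sds was listed at 0 in both shCTR libraries and was covered over 54.0% and 100% in shPHF8. The fourth was intergenic, near the pseudogene Gm42431 and 19236 bp from Cyp3a11.

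Of the 11 listed enzymes of amino acid and one-carbon metabolism, Sds among them, 8 had a peak and 3 had none. Of the 8 with a peak, 3 were up and 1 was down, beside 31.2% up and 13.0% down over the genes of the chromosome with a peak. Sdsl, the neighbour of Sds and similar to it in sequence, was covered over 34.2% and 32.8% in shCTR and 42.4% and 68.4% in shPHF8. Hpd, of tyrosine breakdown, was covered over 68.9% and 44.0% in shCTR and 72.6% and 71.4% in shPHF8. Psph, which carries out the last step of serine synthesis, had no peak in any of the 4 libraries. Ppat, of purine synthesis, was covered over 11.5% and 12.0% in shCTR and 8.35% and 6.78% in shPHF8.

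The widest lost region, chr5:36072601-36078800, reached an exon of Sorcs2, a sorting receptor of neurons. Of its 6200 bp, 6200 and 2000 were in shCTR peaks. The gene as a whole went the other way, with 9.40% and 9.24% covered in shCTR and 9.55% and 11.0% in shPHF8. The next were in an intron of Ube3c, a ubiquitin ligase, and at 126007401 to 126013200 near the pseudogene Gm7774, and each was 5800 bp wide. Ube3c was covered over 10.7% and 12.2% in shCTR and 4.68% and 3.74% in shPHF8. Kdr and Pdgfra, receptor tyrosine kinases beside Kit, were both down, and Pdgfra was covered over 6.77% in both shCTR and 6.33% in both shPHF8 libraries. The difference at Pdgfra was small, with 3109 covered bases in each shCTR and 2909 in each shPHF8 library. The 2001 bases around its start were covered whole in all 4 libraries. Kdr was covered over 7.01% and 5.70% in shCTR and listed at 0 in both shPHF8 libraries.

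Coverage went with base composition. In shCTR replicates 1 and 2 the covered bases of chromosome 5 were 46.3% and 46.6% GC and the uncovered bases 42.2% and 42.1%. In shPHF8 replicates 1 and 2 they were 46.1% and 46.2% against 42.0% and 42.1%. Soft-masked repeats made up 29.1 to 30.2% of covered and 33.8 to 33.9% of uncovered bases. Over the 139 windows, mean coverage and GC content had Pearson's r of 0.62 and Spearman's rho of 0.83, and over 2087 windows of the other autosomes 0.68 and 0.81. These are descriptions over windows that share libraries and neighbours. In windows of under 39% GC the median coverage was 0.765% on chromosome 5 and 1.01% elsewhere, and in windows of 43 to 45% GC it was 10.4% and 10.3%. In windows of at least 45% GC it was 17.1% over 38 windows of chromosome 5 and 12.4% over 391 elsewhere. The stretch from 111 to 141 Mb was 47.6% GC, against 40.9% from 8 to 111 Mb, and its window at 126 Mb was 42.8%. Sequencing and peak calling can also follow GC content, and their part in these values was not tested.

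**Figure D5:**
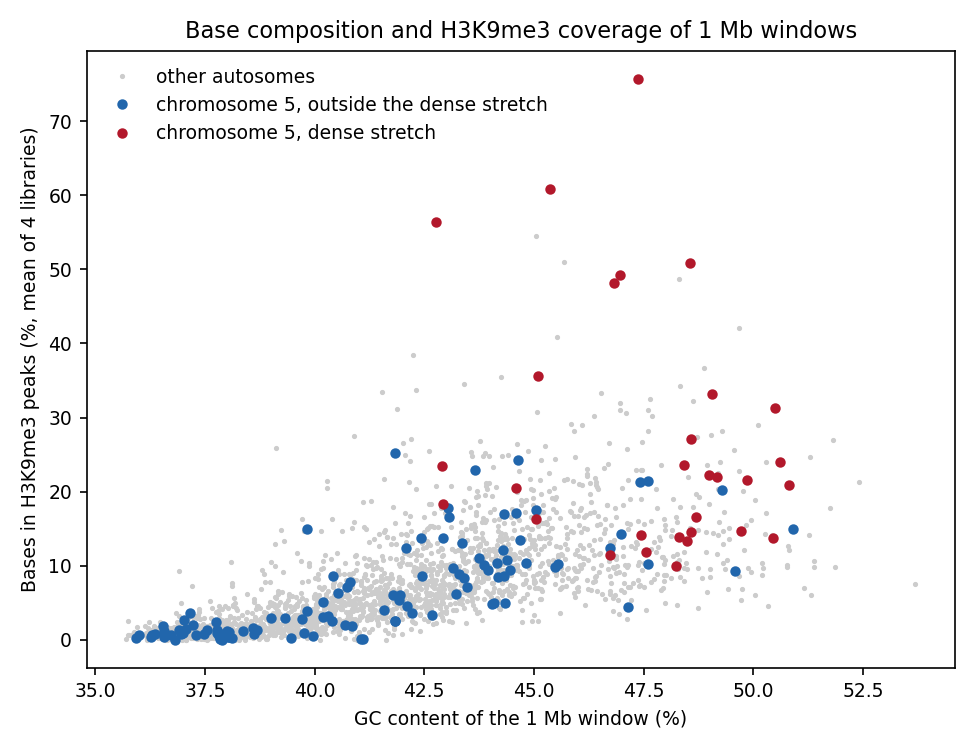
Each point is a 1 Mb window, with its GC content (%) on the horizontal axis and its mean H3K9me3 coverage over the 4 libraries (%) on the vertical axis, for chromosome 5 in and outside 111 to 141 Mb and for the other autosomes in grey. Coverage rises with GC in both, and the dense windows of chromosome 5, up to 75.7%, lie above most windows of like GC.

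The libraries agreed on where the mark lay more than on its exact bases. Over the 139 windows, Pearson's r between libraries was 0.99 within each condition and 0.97 to 0.98 between conditions. By single bases, shCTR replicates 1 and 2 shared 52.9% of the bases covered in either, and shPHF8 replicates 1 and 2 shared 57.5%. Pairs across conditions shared 48.4 to 51.2%. All 4 libraries covered 7174200 bases of chromosome 5 in common, 29.1% of those covered in any. Within coding genes lay 43.9% and 44.8% of the covered bases in shCTR and 42.6% and 42.2% in shPHF8, beside 43.7% of the kept part as a whole.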

How the data were processed

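H3K9me3 ChIP-seq peak lists of 2 shCTR and 2 shPHF8 libraries of mouse NSCs were used, and the 2 inputs were not used here. Per the study's methods, the authors aligned reads to mm10 with SOAPaligner/SOAP2 and called broad peaks with SICER2, 1 deposited list per library, while the submitters' processing notes name Bowtie2 2.3.5.1, SAMtools 1.9 and deepTools. The deposited lists hold positions without a score or read number. The study gives the reads of each library, which are not used here. Window, gap, threshold and use of input are not given in the sources used here.

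The members, gene lists and tests were chosen with earlier results of these data known. Peaks lay on a grid of 200 bp. Coverage was cut at 8 Mb and 5 Mb before the end of each autosome, and peaks, regions and genes (GENCODE M21) were placed by midpoint. Python 3.11.15, numpy 2.4.6, scipy 1.17.1 and samtools 1.23.1 were used, and merging was checked against bedtools 2.31.1 on simulated peaks. Exact permutation tests were two-sided. Named genes were the most covered of the 5 densest windows (3 a window at most) and of each list (2 a list), Psph, Sds and Sdsl, those nearest the widest regions of a single condition (4 gained, 4 lost), and the gene with most covered bases in the 3 windows with the largest difference in each direction. Some genes that this rule names are not reported here. Alternatives were peaks of at least 2000 bp, each library left out, whole chromosomes, other window and bin sizes, scaled covered bases, a replicate block, equal numbers of the widest peaks, other overlap, merging and gene thresholds, and bases that are not N.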

Additional observations from a re-analysis of the deposited data

How the results depend on the processing

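The mean coverage of chromosome 5 (10.8%) was 10.0% with peaks of at least 2000 bp and 6.32% without 111 to 141 Mb, a setting chosen after seeing the data, and 10.2 to 11.3% without each library in turn. Its rank was 1 under every alternative except that without 111 to 141 Mb. The covered length ratio stayed above 1 under every alternative run, and was 1.27 to 1.37 without each library. The ratio against the other autosomes crossed 1, with 0.983 to 1.01 without each library and 1.02 without 111 to 141 Mb. Windows of 500 kb gave 161 up and 14 down, windows of 2 Mb 57 up and 0 down, and scaled covered bases 31 up and 34 down. Windows down were 11 to 14 without each library. Bins of 10 kb gave 1510 up and 383 down, scaled bases 485 up and 595 down, peaks of at least 2000 bp 123 down, and leaving out 111 to 141 Mb 510 up. Without each library, bins up were 1127 to 1389 and bins down 412 to 484. Gained regions were 298 and lost regions 85 with peaks of at least 2000 bp, 99 and 105 with peaks within 5 kb merged, and 448 gained with at least 50% of the region covered. Without each library they were 331 to 646 and 304 to 513, which follows from requiring fewer libraries. Covered genes were 15 at 80% of the length, 116 at 20%, and 21 without 111 to 141 Mb.

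With the replicate block, in which same-numbered libraries were compared, the covered length ratio was 1.32, windows were 102 up and 10 down, and bins 1053 up and 301 down, which ended no count. The deviations of same-numbered libraries had r = -0.02 over 40458 bins of all autosomes and -0.08 on chromosome 5. Whether same-numbered libraries shared a culture or batch cannot be told from these values. Depth limits every call of presence, and the lists give no reads per peak.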
